A study of Mus musculus with 4 samples.

Results

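Macrophage cluster 2 was 1 of 10 macrophage clusters that the study's authors drew among cells washed from the airspaces of mouse lungs. Its members were the cells that the deposited annotation places both in that refined cluster and in the coarse type alveolar macrophage. They numbered 1208 of 9925 cells and of 7933 alveolar macrophages, and no cell of the refined cluster had another coarse type. The cluster is described by 4 marker genes, Hmox1, Slc7a11, Mt1 and Mt2, which mark oxidative and metal stress.

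The lavage cells came from C57BL/6 mice in 4 groups, and 7 mice were pooled into 1 library per group. The APM group breathed an aerosol of Afghanistan particulate matter at 5 mg/m3 for 6 hours a day over 12 days, and was given saline into the nose. The HDM+APM group breathed the same aerosol and then received 10 µg of house dust mite allergen (HDM) through the nose. The HDM group breathed filtered air and received HDM, and the control group breathed filtered air and received saline. Instillations began 9 days after the last aerosol day, on days 22 and 29 to sensitise and on days 36, 37 and 38 to challenge, and cells were taken on day 39. The lavage pools several animals and recovers only cells that lie free in the airspaces. With 1 library per group there is no replicate, so no test between groups was possible and every difference below is one between these libraries.

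Alveolar macrophages clear inhaled particles, surfactant and worn red cells. Oxidants and electrophiles release the transcription factor Nrf2 from its inhibitor Keap1, and Nrf2 then raises genes for glutathione synthesis, thioredoxin recycling, NADPH supply and haem breakdown at antioxidant response elements. Zinc, cadmium and some other metals act through the factor Mtf1, which binds metal response elements in the metallothionein genes, whose small cysteine-rich proteins hold those metals.

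Of the 1208 cells, 631 came from the APM library, 4 from the HDM+APM library, 7 from the HDM library and 566 from the control library. Cluster 2 made up 17.1% (exact 95% interval 15.9 to 18.3) of 3697 alveolar macrophages in the APM library and 14.6% (13.5 to 15.7) of 3882 in the control library. It made up 2.58% (0.708 to 6.48) of 155 in the HDM+APM library and 3.52% (1.43 to 7.11) of 199 in the HDM library. Many genes that could define the clusters differed between libraries, so the shares are given as a description of how the annotation divided each library. The 4 and 7 cells of the 2 HDM libraries were too few to compare. Expression is therefore described for APM and control.

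Cluster 2 held 1745695 UMIs (unique molecular identifiers, each counting 1 captured transcript) in the APM library and 1833374 in the control library. The median cell of cluster 2 had 2692 UMIs and 1168 genes in the APM library, and 3294 UMIs and 1360 genes in the control library. Mitochondrial transcripts took a median of 2.69% and 3.07% of a cell's UMIs in the APM and control libraries. The libraries shared 42 cell barcodes in all, 1 of them within cluster 2, between APM and control. For each cluster and library the UMIs of all cells were added up and scaled to CPM, counts per 1000000 UMIs. A gene was measured where both sums together held at least 50 UMIs, and it is called higher or lower where the ratio of CPM reached 1.5 in that direction. Intervals in parentheses are exact 95% intervals that cover counting error only, and a difference between mice or libraries is not in them. Those of CPM and of ratios also leave out the spread between cells.

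The promoter windows of Mt1, Mt2, Slc7a11 and Srxn1 are shown because they carry motifs of the pathways for which the cluster's genes are known. They run from 250 bases before to 50 after the start given by RefSeq, build GRCm38.p6, and are read along the gene's own strand. Capitals mark 3 kinds of motif that were searched on both strands. They are the metal response element core (TGCACNC or TGCGCNC), the antioxidant response element core (TGACNNNGC or TGAGTCAGC) and the C/EBP-ATF response element (TGATGNAAN), the site of ATF4, the factor of the integrated stress response. The form TGAGTCAGC was added after Srxn1 had been looked at.
Mt1, chr8:94178839-94179138, plus strand: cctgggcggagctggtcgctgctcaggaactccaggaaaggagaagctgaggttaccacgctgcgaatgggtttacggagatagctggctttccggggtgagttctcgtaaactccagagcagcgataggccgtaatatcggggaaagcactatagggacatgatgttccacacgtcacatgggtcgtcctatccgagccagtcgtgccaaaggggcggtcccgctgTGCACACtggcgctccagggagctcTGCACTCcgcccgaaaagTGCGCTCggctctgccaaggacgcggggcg
Mt2, chr8:94172368-94172667, plus strand: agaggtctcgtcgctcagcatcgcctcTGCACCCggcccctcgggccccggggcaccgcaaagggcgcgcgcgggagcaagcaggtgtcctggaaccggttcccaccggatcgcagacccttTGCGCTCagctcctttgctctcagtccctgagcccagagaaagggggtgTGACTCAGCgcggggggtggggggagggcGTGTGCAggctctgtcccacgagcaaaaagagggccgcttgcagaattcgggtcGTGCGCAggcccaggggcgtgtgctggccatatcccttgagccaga
Slc7a11, chr3:50443564-50443863, minus strand: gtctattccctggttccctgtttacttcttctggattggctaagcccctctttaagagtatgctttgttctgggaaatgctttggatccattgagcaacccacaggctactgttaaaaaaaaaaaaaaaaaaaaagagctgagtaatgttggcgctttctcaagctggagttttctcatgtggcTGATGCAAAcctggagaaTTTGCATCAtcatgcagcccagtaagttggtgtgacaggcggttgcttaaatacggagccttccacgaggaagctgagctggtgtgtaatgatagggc
Srxn1, chr2:152105274-152105573, plus strand: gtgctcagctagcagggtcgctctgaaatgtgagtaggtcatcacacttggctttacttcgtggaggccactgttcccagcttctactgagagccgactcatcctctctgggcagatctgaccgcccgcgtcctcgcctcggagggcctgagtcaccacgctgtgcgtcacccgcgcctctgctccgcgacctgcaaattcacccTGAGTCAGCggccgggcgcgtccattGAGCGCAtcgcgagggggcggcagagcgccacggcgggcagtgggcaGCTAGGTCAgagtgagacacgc

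The Mt1 window held 3 metal response cores and the Mt2 window held 4, together with 1 antioxidant response core. The Slc7a11 window held a pair of facing C/EBP-ATF elements. The Srxn1 window held 2 antioxidant response cores and 1 metal response core. Among 32851 windows of the same length, 25.7% held a metal response core and 6.14% held at least 2. The antioxidant response core was in 12.7% of all windows and the C/EBP-ATF element in 3.95%. Of the 33 genes on the list of Nrf2 targets, 27 had a window. Of those 27, 11 held the antioxidant core and 6 the metal core. Of the 20 genes listed as metallothioneins and zinc transporters, 18 had a window. Of those 18, 10 held the metal core and 6 the antioxidant core. Among haem and iron genes 4 of 24 with a window held the antioxidant core and 9 the metal core. Glutathione genes held each core in 5 of 22. Thioredoxin, peroxiredoxin and dismutase genes held the antioxidant core in 5 of 17 and the metal core in 4. A listed gene counted if any of its windows matched, whereas the shares over all windows count single windows. These are letter matches, not shown binding sites. Hmox1, a protein-coding gene at chr8:75093621-75100589 on the plus strand (mm10), is named without a window.

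The markers did not all peak in cluster 2, as the plot of marker levels by cluster shows. Hmox1, which encodes the inducible haem oxygenase that opens the haem ring, had 3167 CPM (3084 to 3252) in cluster 2 of the APM library. It was second there to cluster 9, at 8284 CPM, and above cluster 3, at 1606, while clusters 4 and 6 held 343 and 349 CPM. Hmox1 in the control library had 3699 CPM (3611 to 3788) in cluster 2, again below cluster 9 at 7587 and above cluster 3 at 2662. Slc7a11, the cystine importer that feeds glutathione synthesis, ranked behind clusters 9 and 3 in both libraries. Its level in cluster 2 of the APM library was 469 CPM (438 to 502), against 716 in cluster 9 and 504 (459 to 552) in cluster 3, and the intervals of clusters 2 and 3 overlapped. Control cells of cluster 2 had 402 CPM (373 to 432), against 719 in cluster 9 and 574 in cluster 3.

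The metallothioneins were highest in cluster 2. Mt1 had 17315 CPM (17120 to 17511) in cluster 2 of the APM library, followed by cluster 1 at 15640 and cluster 3 at 12190. Mt1 in the control library had 18765 CPM (18567 to 18964) in cluster 2, followed by cluster 3 at 16817. Mt2 had 4014 CPM (3920 to 4109) in cluster 2 of the APM library, and the interval overlapped that of cluster 9 at 3822 (3590 to 4065). Mt2 in the control library had 6057 CPM (5944 to 6170) in cluster 2, above cluster 9 at 4541 and cluster 3 at 4494. By these markers the cluster is a metallothionein-high cluster with raised Hmox1 and Slc7a11, but the highest Hmox1 and Slc7a11 lay in cluster 9.

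**Figure D1:**
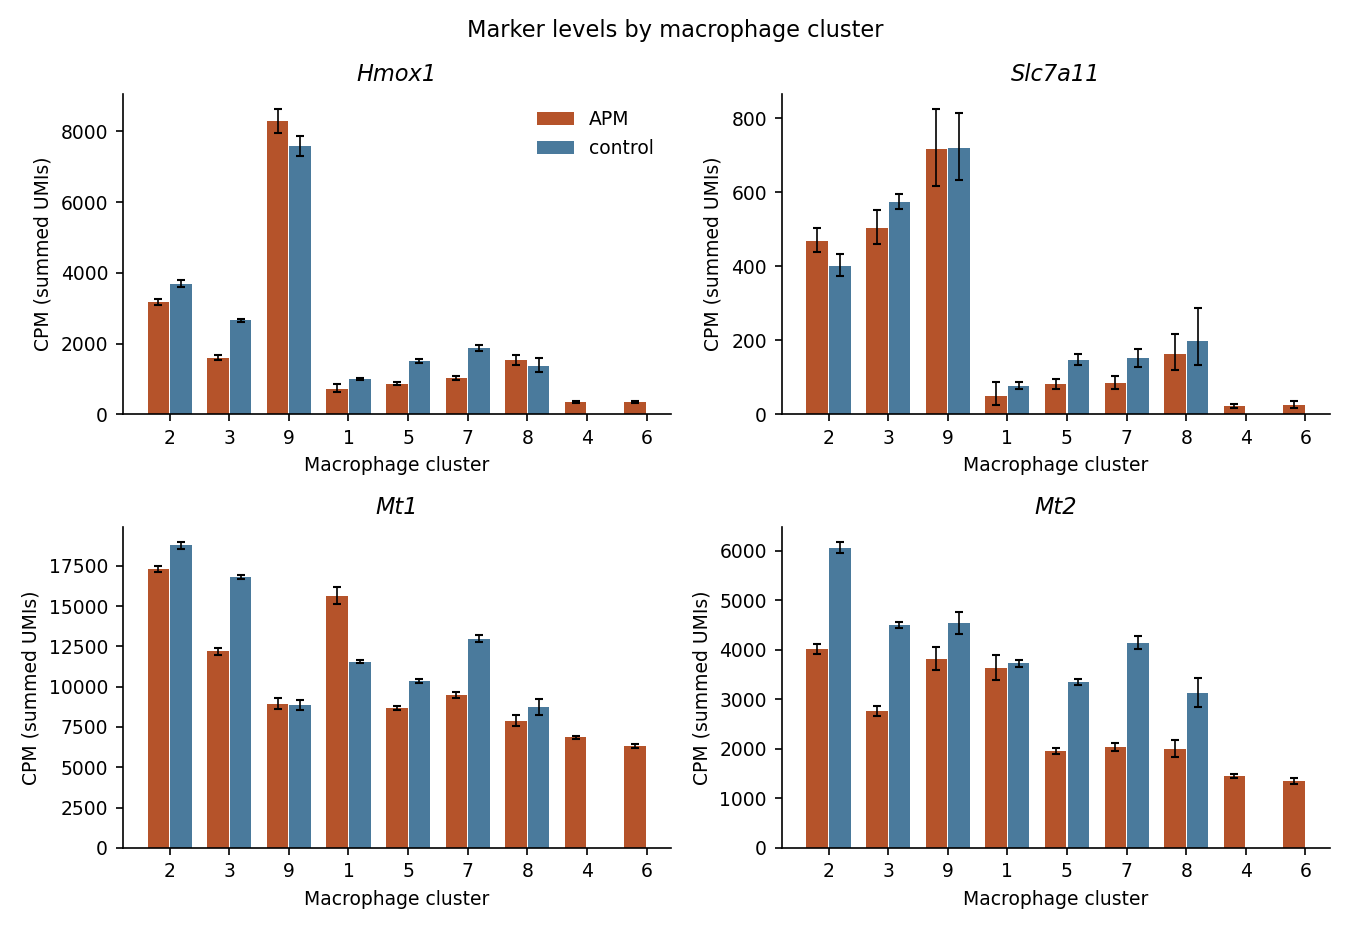
CPM of Hmox1, Slc7a11, Mt1 and Mt2 in each macrophage cluster with at least 50 cells, for the APM and control libraries; bars are summed UMIs scaled to CPM and whiskers are exact 95% Poisson intervals. Mt1 and Mt2 are highest in cluster 2, at 17315 and 4014 CPM in the APM library, while Hmox1 and Slc7a11 are highest in cluster 9; clusters 4 and 6 have no control bar because they held under 50 control cells.

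Cluster 2 stood above the other alveolar macrophages in many Nrf2 targets, most of them in the APM library. That list includes the markers Hmox1 and Slc7a11, so its counts and medians are not separate from the markers. Slc7a11 is also on the glutathione list, Hmox1 on the haem and iron list, and Mt1 and Mt2 on the metallothionein list. In the APM library 24 of 31 measured Nrf2 targets were called higher and 0 lower. Their median log2 ratio was 1.17, against -0.16 over all 8752 genes measured. Over all genes 6.08% were called higher and 18.5% lower. Among control cells 5 of 33 Nrf2 targets were called higher and 0 lower, with a median of 0.34, against -0.07 over all 9231 genes measured, of which 2.61% were called higher and 9.6% lower. The annotation used these cells' expression to draw the clusters, so the contrast describes the cluster and tests nothing. Scaling by the median of ratios moved all log2 ratios of the APM contrast up by 0.14. It gave 838 genes higher and 1180 lower in place of 532 and 1619, and scaling to totals without the 10 most abundant genes gave 706 and 1304.

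Several of these genes serve glutathione. Gclm, the modifier subunit of the enzyme that limits glutathione synthesis, had 447 CPM in cluster 2 and 169 in the other alveolar macrophages of the APM library, a ratio of 2.64 (2.42 to 2.88). The control library gave 363 CPM in cluster 2 and 255 in the others, a ratio of 1.43 that was not called. Slc7a11 had ratios of 3.98 (3.63 to 4.36) in the APM library and 1.27 (1.17 to 1.37) in the control library. Of the glutathione list, 11 of 19 measured members were called higher and 2 lower in the APM library, and 1 of 21 higher in the control library. The catalytic subunit Gclc had ratios of 1.72 (APM) and 1.16 (control), and glutathione synthetase, Gss, had 2.83 and 0.919. Glutathione reductase, Gsr, had 1.79 and 1.37. The 2 lower members in the APM library were Gpx1, a peroxidase that spends glutathione, at 0.666, and the microsomal transferase Mgst3 at 0.574.

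NADPH supply and thioredoxin recycling showed the same order of ratios, larger in APM than in control. Nqo1, the quinone reductase that is a classical Nrf2 target, had 33.8 CPM in cluster 2 and 6.29 in the other alveolar macrophages of the APM library, a ratio of 5.37 (3.68 to 7.86). The control library gave 29.5 CPM in cluster 2 and 15.7 in the others, a ratio of 1.88 (1.36 to 2.54). Nqo1 was highest in cluster 2 among all clusters in both libraries, although its interval overlapped that of cluster 3 (17.2 CPM in APM and 24.1 CPM in control). Me1 and Pgd, which make NADPH, had ratios of 4.10 and 2.21 in the APM library and of 1.98 and 1.43 in the control library. Thioredoxin reductase, Txnrd1, had 2.45 (APM) and 1.48 (control), and Srxn1, which restores oxidised peroxiredoxins, had 2.71 and 1.55. Prdx1, a peroxiredoxin, had 9763 CPM in cluster 2 against 3832 CPM in the others of the APM library, a ratio of 2.55, and 7813 against 5932 in the control library. Catalase, Cat, which splits hydrogen peroxide, had ratios of 2.97 and 1.27 in the APM and control libraries.

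Not every redox gene took part. Of 18 measured thioredoxin, peroxiredoxin and dismutase genes, 6 were called higher and 3 lower in the APM library, and 1 of 19 higher in the control library. Txnip, the inhibitor of thioredoxin, had 319 CPM in cluster 2 and 559 in the others of the APM library, a ratio of 0.571 (0.522 to 0.624). Prdx4, the peroxiredoxin of the endoplasmic reticulum, had a ratio of 0.522 there. Of 14 Nrf2 pathway regulators, 3 were called higher and 0 lower in the APM library (median 0.21), and 1 higher and 1 lower in the control library (0.07). Nfe2l2, which encodes Nrf2, had ratios of 1.17 and 1.16 in the APM and control libraries, and Keap1 had 1.27 and 1.30. Bach1, the haem-sensing repressor of Hmox1, had 94.5 CPM in cluster 2 against 77.6 in the others of the APM library, a ratio of 1.22. In the control library it had 130 CPM against 80.2, a ratio of 1.62 (1.40 to 1.86). That was among the 12 highest ratios there of genes with at least 100 CPM in cluster 2.

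Part of the haem and iron list was high in cluster 2. In the APM library 11 of 23 measured members were called higher and 2 lower (median log2 ratio 0.47), and in the control library 3 of 24 were higher and 0 lower (0.17). Slc40a1, ferroportin, the exporter of iron, had 64.7 CPM in cluster 2 and 14.4 in the others of the APM library, a ratio of 4.49 (3.46 to 5.81). Ferroportin in the control library had 99.3 against 36.6 CPM, a ratio of 2.71 (2.27 to 3.22). Cluster 2 had the highest Slc40a1 of all clusters in both libraries, with cluster 3 next at 47.2 and 60.3 CPM in APM and control, and in APM the intervals of both clusters overlapped. Slc48a1, which carries haem out of the phagolysosome, had ratios of 2.25 (APM) and 1.37 (control), and biliverdin reductase, Blvrb, had 2.61 and 1.18. The ferritin chains Fth1 and Ftl1, which store iron, each had a ratio of 1.91 in the APM library, and of 1.13 and 1.29 in the control library. Tfrc, the transferrin receptor, had a ratio of 4.12 (2.64 to 6.39) in the APM library and 1.07 (0.687 to 1.61) in the control library.

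Few of the metallothioneins and zinc transporters were called higher in cluster 2. Among 17 measured metallothioneins and zinc transporters, 4 were called higher in the APM library and 2 in the control library, with 0 lower in either and medians of 0.12 and 0.07. Mt1 had ratios of 2.07 (2.05 to 2.10) and 1.40 (1.39 to 1.42) in the APM and control libraries, and Mt2 had 2.13 (2.07 to 2.19) and 1.52 (1.49 to 1.55). Slc30a1, the zinc exporter that is a known Mtf1 target, had 1.76 (1.18 to 2.58) and 1.35 (1.01 to 1.78). The remaining calls were the zinc carriers Slc39a6, at 1.54 in the APM library, and Slc30a6, at 1.71 (0.942 to 2.92) in the control library.

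The other alveolar macrophages were not the same mixture in both libraries, and which part of the larger APM ratios goes with that was not tested beyond the weighting given here. Clusters 4 and 6, which were low in Hmox1 and Slc7a11, held 1029 and 688 APM cells but 21 and 42 control cells. Cluster 3, high in them, held 179 APM and 906 control cells, and cluster 1 held 94 and 1360. Equal weight was then given to every other cluster of at least 50 cells in the library. Clusters 4 and 6 thus counted in APM only, and cluster 10 in neither library. The median log2 ratio of the 4 markers was then 0.82 in APM and 0.55 in control, against 1.41 and 0.55 over summed cells. The APM and control values still rest on different sets of clusters.

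**Figure D2:**
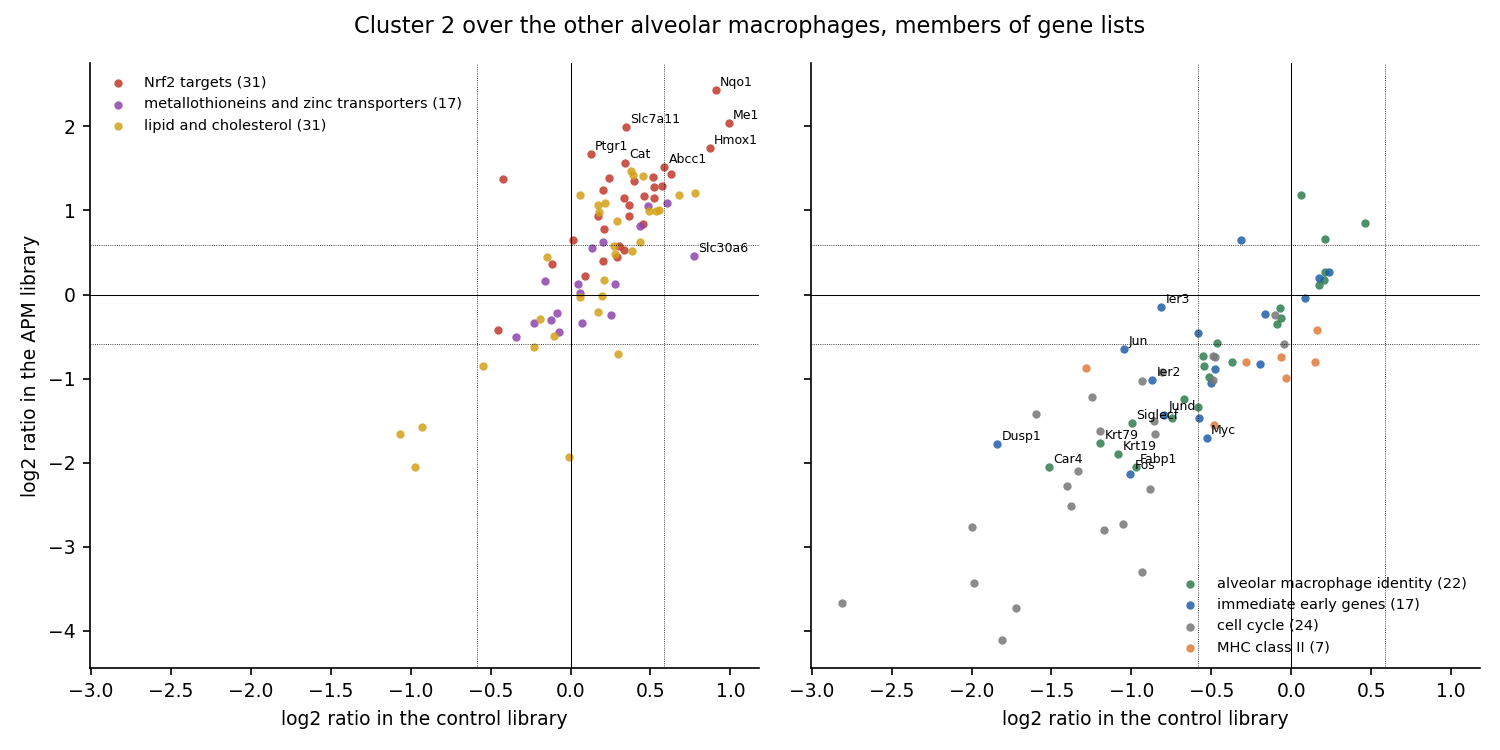
Log2 ratio of CPM in cluster 2 over all other alveolar macrophages, in the APM library (vertical) and the control library (horizontal), for genes measured in both; each point is 1 gene, the numbers in the legend count genes, and dotted lines mark 1.5-fold. Most Nrf2 targets (left) lie in the upper right, with Nqo1 at ratios of 5.37 and 1.88, while identity, immediate early, cell cycle and MHC class II genes (right) lie mostly below 0 in the APM library; the proliferating clusters 7 and 10 are among the others, and without them 5 of 19 cell cycle genes were called lower in APM.

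Lipid and cholesterol genes were mixed. Of 31 lipid and cholesterol genes, 14 were called higher and 7 lower in the APM library, and 2 higher and 3 lower in the control library, with medians of 0.52 and 0.21. Cluster 2 was the highest cluster for 9 of the 31 in each library, a rank that was not counted over all genes. Hmgcs1, an early enzyme of cholesterol synthesis, had 270 CPM in cluster 2 against 135 in the others of the APM library, a ratio of 2.00 (1.79 to 2.23), and 269 against 184 in the control library, a ratio of 1.47. Idi1, a later enzyme of the pathway, had 172 against 74.8 CPM (APM) and 191 against 111 CPM (control). The exporters of cholesterol went the other way. Abca1 had 18.9 CPM in cluster 2 and 59.9 in the others of the APM library, a ratio of 0.316 (0.215 to 0.449), and 19.1 against 40.0 in the control library. Abcg1 had ratios of 0.336 and 0.524.

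Many genes that identify resting alveolar macrophages were lower in cluster 2 than in the others as a whole. Of 22 measured identity genes, 12 were called lower and 3 higher in the APM library (median -0.77), and 7 lower and 0 higher in the control library (-0.49). Car4, a carbonic anhydrase, had 90.5 CPM in cluster 2 against 375 in the others of the APM library, 4.15-fold lower (3.54 to 4.90), and 85.1 against 244 in the control library, 2.86-fold lower. Siglecf, the sialic acid receptor used to sort these cells, had ratios of 0.345 (APM) and 0.501 (control). Bhlhe41, a repressor active in alveolar macrophages, stood apart at 1.80 and 1.38. All 22 identity genes had UMIs in cluster 2 in both libraries, and their summed level was 13186 CPM in APM and 14058 CPM in control. The sums were lower still in cluster 3, at 12661 and 12870 CPM, and in cluster 9, at 10696 and 10776 CPM, in APM and control. Cluster 2 was the lowest cluster for 0 of the 22 genes in either library, again without a count over all genes.

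Cell cycle genes were called lower in cluster 2 in 23 of 24 measured members in the APM library (median -1.88) and 19 of 25 in the control library (-1.05), but the others include clusters 7 and 10, which the annotation names as proliferating. Those clusters held 306 and 39 APM cells, and 241 and 9 control cells. Without them, an alternative added after the data were seen, 5 of 19 cell cycle genes were called lower and 2 higher in APM (-0.21). Over all genes 15.5% were lower and 6.34% higher there. In control 2 of 22 were lower and 1 higher (0.00), where 7.61% of all genes were lower and 2.73% higher. Stmn1, which destabilises microtubules in dividing cells, had 66.4 CPM (54.9 to 79.7) in cluster 2 of the APM library, close to cluster 3 at 74.0 and cluster 1 at 70.4, against 1584 in cluster 7. Immediate early genes were called lower in 11 of 18 measured members (APM) and 7 of 18 (control). Fos, a subunit of the AP-1 factor, had ratios of 0.229 (0.158 to 0.321) in the APM library and 0.498 (0.367 to 0.662) in the control library.

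MHC class II genes, which present antigen to T cells, were called lower in cluster 2 in 6 of 7 measured members (APM, median -0.80) and in 1 of 7 (control, median -0.06). Without cluster 8 among the others the medians were -0.35 (APM) and 0.03 (control). Inflammatory genes were mixed. Of 22 measured, 9 were called higher and 4 lower in the APM library, and of 23 measured, 2 were higher and 3 lower in the control library. The receptors Clec4d and Clec4e, which bind microbial glycolipids, had ratios of 3.08 (2.71 to 3.49) and 2.84 (2.50 to 3.23) in the APM library and of 1.17 and 1.18 in the control library. Outside this list, 2 further genes with high ratios in the APM library were Slc11a1, an iron and manganese carrier of the phagosome, and Rnf128, a ubiquitin ligase. Slc11a1 had 45.8 CPM in cluster 2 against 10.5 in the others of the APM library, a ratio of 4.36 (3.20 to 5.92), and a ratio of 0.900 (0.686 to 1.16) in the control library. Rnf128 had ratios of 3.39 and 1.76 in the APM and control libraries. Nampt, which makes the NAD precursor NMN, had 527 against 200 CPM (APM) and 502 against 326 CPM (control).

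Clusters 3 and 9 also ranked highest for many Nrf2 targets. How alike the clusters are over all stress genes was not computed. Of the Nrf2 targets measured against the others, 30 of 31 had cluster 2 among their 3 highest clusters in the APM library (9 clusters of at least 50 cells) and 30 of 33 in the control library (7 clusters). The single highest cluster was cluster 2 for 11, cluster 3 for 7 and cluster 9 for 11 of them in the APM library. In the control library it was cluster 2 for 7, cluster 3 for 11 and cluster 9 for 12. Such ranks were not counted over all genes, so no background share stands beside them.

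Against cluster 3, cluster 2 had more Hmox1 and Txnip and less Cd63, Ms4a7 and interferon response RNA, while most Nrf2 targets lay within 1.5-fold. Of 29 measured Nrf2 targets 4 were called higher and 0 lower in the APM library (median 0.12), where 9.73% of 5015 genes were called higher and 3.57% lower. The 4 were Hmox1, Nqo1, Gclc and Gsr. In the control library 0 of 33 were higher and 5 lower (median 0.01), where 8.61% of 7599 genes were higher and 3.2% lower. The 5 were the detoxifying enzymes Ephx1, Gsta3, Gstp1 and Ptgr1, and Osgin1, a stress-induced oxidoreductase-like gene. Hmox1 had a ratio of 1.97 (1.86 to 2.09) in the APM library and 1.39 (1.35 to 1.43) in the control library. Txnip was higher in cluster 2, at 319 against 126 CPM in the APM library and 469 against 273 in the control library. Ms4a7, a membrane gene typical of monocyte-derived macrophages, had 41.2 CPM in cluster 2 against 103 in cluster 3 of the APM library, and 47.5 against 126 in the control library. Cd63, a tetraspanin of lysosomes, had ratios of 0.566 (0.529 to 0.607) and 0.470 (0.442 to 0.500). Interferon response genes were lower in cluster 2 in 7 of 11 measured members (APM) and 7 of 16 (control).

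Against cluster 9, cluster 2 was lower in heat shock and integrated stress response genes and higher in many lipid genes. In the APM library 14 of 16 measured heat shock genes were called lower in cluster 2 (median -1.24), and in the control library 15 of 16 (-1.51), where 13.1% and 13% of all genes were lower. Hspa1a, the inducible Hsp70 chaperone, had 65.3 CPM in cluster 2 against 5685 in cluster 9 of the APM library, 87.1-fold lower (71.9 to 106). The control library gave 92.2 against 5625 CPM, 61.0-fold lower (52.1 to 71.8). Integrated stress response genes were lower in 10 of 15 measured members (APM) and 12 of 15 (control). Mt1 was higher in cluster 2, with ratios of 1.94 (APM) and 2.11 (control), and lipid and cholesterol genes were called higher in 18 of 26 and 15 of 27, where 33.2% and 30.2% of all genes were higher. Hmox1 was lower in cluster 2, at ratios of 0.382 and 0.487 in the APM and control libraries.

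Within cluster 2 the markers were uneven between cells. Hmox1 had quartiles of 453, 1443 and 4795 CPM per cell in the APM library and of 859, 2009 and 5960 in the control library. The tenth of cells with the most Hmox1 held 39.3% of its UMIs in APM and 33.5% in control. At least 1 Hmox1 UMI was seen in 85.9% (82.9 to 88.5) of cluster 2 cells in the APM library and 97.5% in the control library. T cells, which should have little of it, showed 15.4% of 52 cells at a median of 1129.5 UMIs in APM and 61.5% of 13 cells at 1655 UMIs in control. Slc7a11 was seen in 54.8% of cluster 2 cells in APM and 55.8% in control, against 1.92% and 7.69% of T cells. The Mt1 share is not informative, since 92.3% of T cells in APM and 100% in control also had a UMI. With each cell thinned to 1500 UMIs, which left out 20 APM and 1 control cell, Hmox1 was seen in 75.8% and 89.0% of cluster 2 cells, and Slc7a11 in 41.4% and 36.1%, in APM and control. The other alveolar macrophages showed Hmox1 in 41.6% and 72.1%, and Slc7a11 in 8.58% and 22.5%, at that depth.

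Cells with more Hmox1 also had more Mt1, Mt2 and some of the antioxidant transcripts. Across thinned cells the rank correlation of Hmox1 with Mt1 was 0.43 over 611 APM cells and 0.39 over 565 control cells, and that of Mt1 with Mt2 was 0.78 and 0.73. Cells of 1 library share its preparation, so these values describe the cells and carry no test. Thinned cells with at least 7 Hmox1 UMIs (164 APM cells) had 3.54 times the Gclm and 3.27 times the Slc7a11 of those with at most 1 (263 cells). In the control library, cells with at least 9 Hmox1 UMIs (148 cells) had 3.36 times the Gclm and 3.44 times the Slc7a11 of those with at most 1 (171 cells). Srxn1 was 2.77 times (APM) and 3.92 times (control) as high, and Sqstm1, the autophagy receptor that binds Keap1, 2.63 and 2.61 times. Mt1 was 2.02 and 1.72 times as high in the APM and control libraries. Other redox genes did not follow Hmox1: its rank correlation with Txn1, thioredoxin, was -0.11 over APM cells and -0.14 over control cells, and with Gpx1 it was -0.11 and -0.10. The ferritin light chain Ftl1 was nearly even, at 1.03 and 0.974 times. The fatty acid carriers Fabp4 (0.602 and 0.667 times) and Fabp5 (0.638 and 0.572 times) were lower in the Hmox1-rich cells. These classes are ends of a range, not cell types.

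**Figure D3:**
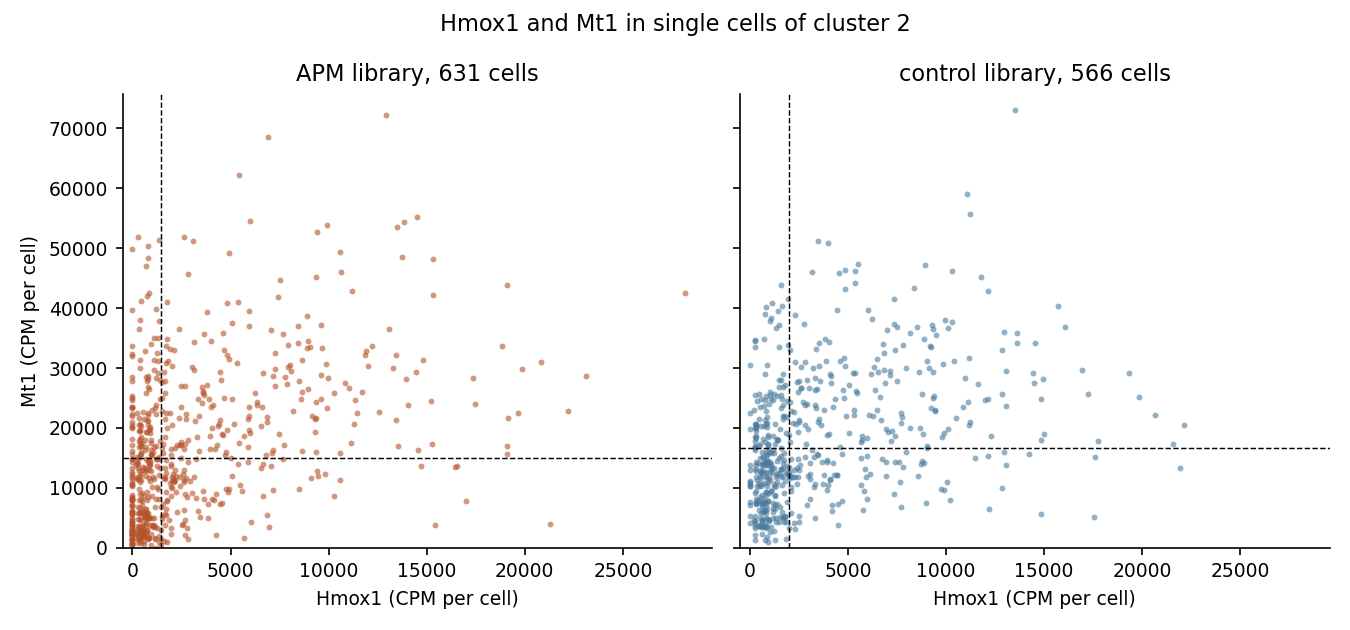
Hmox1 against Mt1 in single cells of cluster 2, each in CPM of the cell's own UMIs, for 631 APM cells (left) and 566 control cells (right); dashed lines are the medians. Cells spread over a continuous range in both libraries, and the Hmox1 medians are 1443 CPM in APM and 2009 CPM in control.

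Between the libraries, most stress genes of cluster 2 lay at similar levels. Cells of both libraries were placed in the cluster by their expression, and how far that sets the similarity was not tested. Of 6018 genes measured within cluster 2, 229 (3.81%) were called higher and 382 (6.35%) lower in APM than in control. In 171 (2.84%) and 272 (4.52%) of these the counting interval also left out 1. The shares of 3.81% and 6.35% over all genes stand beside every list count of APM over control within cluster 2 below. Hmox1 had 3167 CPM in APM and 3699 CPM in control, a ratio of 0.856 (0.826 to 0.887), and Slc7a11 had 469 and 402, a ratio of 1.17 (1.06 to 1.29). Mt1 had 17315 CPM in APM and 18765 CPM in control, a ratio of 0.923 (0.909 to 0.937). These 3 were not called. Mt2 was called lower, with 4014 CPM in APM against 6057 CPM in control, a ratio of 0.663 (0.643 to 0.683). The 4 HDM+APM and 7 HDM cells of cluster 2 were too few to compare. They had Mt2 at 2407 CPM (1635 to 3416) in HDM+APM and 3975 CPM (3200 to 4880) in HDM. In the same order Mt1 had 11412 and 11401 CPM, Hmox1 854 and 4368 CPM, and Slc7a11 388 and 437 CPM.

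Nrf2 targets were close to even between APM and control. Of 29 measured, 2 were called higher and 0 lower. Their median log2 ratio was 0.07, against -0.04 over all genes. The 2 were Esd, a hydrolase that completes glutathione-dependent formaldehyde removal, with 923 CPM in APM and 611 CPM in control (ratio 1.51, 1.40 to 1.63), and Ptgr1, a reductase of reactive aldehydes, with 99.7 and 57.3 CPM (1.74, 1.36 to 2.24). Among 19 glutathione genes 3 were called higher and 0 lower (median 0.18), Esd and the microsomal transferases Mgst2 and Mgst3. Of 18 thioredoxin, peroxiredoxin and dismutase genes 0 were called in either direction. Prdx1 had 9763 CPM in APM and 7813 CPM in control, a ratio of 1.25, and Sqstm1 had 649 and 855 CPM, a ratio of 0.759.

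Metal genes gave only lower calls. Of 15 measured metallothioneins and zinc transporters 0 were called higher and 3 lower, with a median of -0.21. Beside Mt2 these were Slc30a1, the zinc exporter, at 21.2 CPM in APM and 33.3 CPM in control (0.637, 0.412 to 0.974), and Slc39a14, which imports zinc and iron, at 12.0 and 30.5 CPM (0.394, 0.227 to 0.661). Among 21 haem and iron genes 1 was called higher and 3 lower, with a median of 0.00. Slc40a1 had 64.7 CPM in APM and 99.3 CPM in control, a ratio of 0.652 (0.511 to 0.829). Slc11a2, which imports iron, and Aco1, the iron regulatory protein, were also lower, at 0.640 (0.373 to 1.08) and 0.630 (0.461 to 0.857), and Tfrc was called higher at 1.52 (0.905 to 2.58). The intervals of Tfrc and Slc11a2 held 1.

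Antigen presentation genes were lower in APM. Of 6 measured MHC class II genes 5 were called lower in APM and 0 higher, with a median log2 ratio of -0.74. H2-Ab1, a chain of the class II molecule, had 178 CPM in APM and 350 CPM in control, a ratio of 0.507 (0.441 to 0.582), and H2-Aa had 248 and 437 CPM, a ratio of 0.568 (0.504 to 0.639). H2-Eb1, H2-DMa and H2-DMb1 had ratios of 0.563, 0.647 and 0.635. In cluster 3 H2-Ab1 had 204 CPM in APM and 265 CPM in control, a ratio of 0.768, and in all other alveolar macrophages together 309 and 316 CPM, a ratio of 0.978. Whether these ratios differ between clusters was not tested. Dendritic cells carry much more class II, and their 8 markers summed to 10.9 CPM in cluster 2 of APM and 15.8 CPM in control, with Flt3, Cd209a and Xcr1 at 0 in both. Their part in the result was not tested.

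Among integrated stress response genes 5 of 17 measured were called higher in APM and 0 lower (median log2 ratio 0.41). Mthfd2, a mitochondrial folate enzyme, had 28.6 CPM in APM and 6.00 CPM in control, a ratio of 4.77 (2.45 to 10.2). Cebpb, a transcription factor of stress and inflammation, had 1226 and 694 CPM (1.77, 1.65 to 1.89), Ddit3, the stress factor CHOP, 72.2 and 42.0 CPM (1.72), and Gdf15, a secreted stress signal, 176 and 102 CPM (1.73). The other call was the transcription factor Atf5, with a log2 ratio of 0.70, which is named after its value was seen. Within cluster 3 the APM over control ratios were 2.87 for Mthfd2, 2.62 for Cebpb, 2.28 for Ddit3 and 1.30 for Gdf15. Heat shock genes were not called in either direction in cluster 2, at 0 of 16. Mitochondrially encoded transcripts leaned lower, with 2 of 12 called and a median of -0.33.

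Among inflammatory genes 1 of 18 was called higher and 3 lower. Ccl3, a chemokine that draws monocytes, had 58.4 CPM in APM and 22.4 CPM in control, a ratio of 2.61 (1.80 to 3.85). Tnf, the tumour necrosis factor gene, had 12.0 and 29.5 CPM (0.408, 0.234 to 0.687), the chemokine Ccl9 18.9 and 39.8 CPM (0.475), and the adhesion gene Icam1 46.4 and 84.5 CPM (0.549). Of 31 lipid and cholesterol genes 2 were called higher, Insig1, a brake on sterol synthesis, at 195 and 102 CPM (1.91, 1.59 to 2.29), and the scavenger receptor Cd36 at 387 and 254 CPM (1.52). Mylip, a ubiquitin ligase induced by sterols, was called lower at 0.640.

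**Figure D4:**
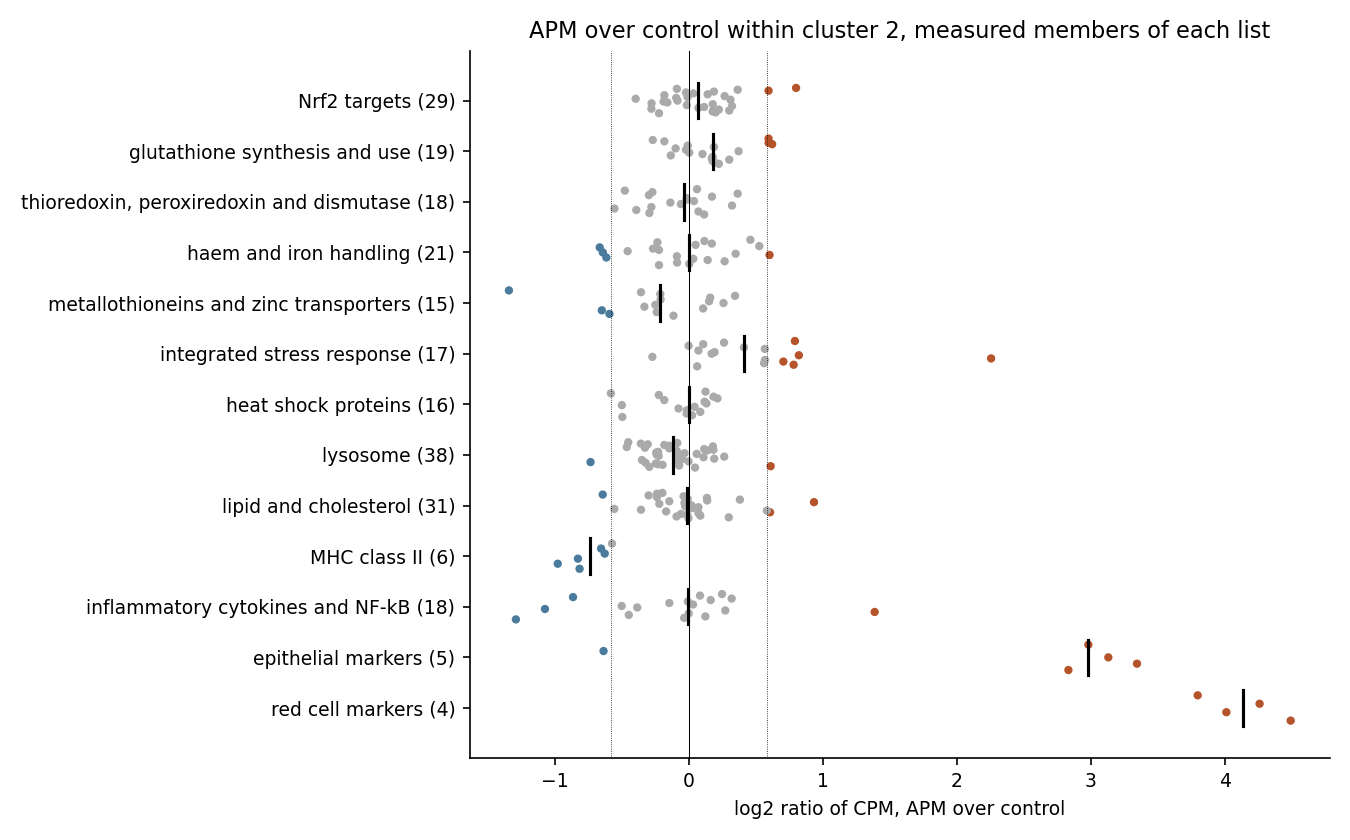
Log2 ratio of CPM, APM over control, within cluster 2, for the measured members of 13 gene lists (number of members in brackets); points are genes, coloured where the ratio reached 1.5 in either direction, vertical ticks are list medians and dotted lines mark 1.5-fold. Nrf2 targets sit around a median of 0.07, MHC class II genes around -0.74 and integrated stress response genes around 0.41, and the 4 red cell markers lie farthest to the right.

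Of genes that reached 50 CPM in APM or control, the 10 highest ratios belonged mostly to genes on the red cell and epithelial marker lists. The haemoglobin chains Hba-a1 and Hbb-bs had 1141 and 2464 CPM in cluster 2 of APM, against 50.7 and 129 CPM in control, ratios of 22.5 (18.3 to 28.0) and 19.1 (16.8 to 21.9). The airway secretory genes Scgb3a1, Scgb3a2 and Scgb1a1 had ratios of 10.2, 8.75 and 7.12, and Sftpc, the surfactant gene of alveolar type II cells, had 7.90. Red cell markers summed to 4784 CPM in cluster 2 of APM and 256 CPM in control. Every macrophage cluster of at least 50 cells showed this, with sums between 3403 and 21530 CPM in APM and between 188 and 377 CPM in control. Epithelial markers summed to 1959 CPM in APM and 301 CPM in control, with 0 and 1 of 11 at 0. In the other alveolar macrophages together the red cell sums were 5719 and 248 CPM and the epithelial sums 1856 and 336 CPM in APM and control. Neutrophil markers summed to 172 and 67.1 CPM in cluster 2, with 2 of 7 at 0 in both, and to 91.0 and 85.3 CPM in the others. S100a8, a neutrophil alarmin, had 123 CPM in cluster 2 of APM and 43.6 CPM in control, a ratio of 2.82 (2.17 to 3.70). T cell markers summed to 2.86 and 1.09 CPM, with 4 and 5 of 7 at 0, and B cell markers held 0 and 1 UMI. The part of red cell, epithelial and neutrophil RNA in the other ratios was not tested.

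Outside cluster 2 the same contrast gave other values for the stress genes. As a sum, the other alveolar macrophages had Hmox1 at 950 CPM in APM and 2024 CPM in control, a ratio of 0.470 (0.458 to 0.481), and Slc7a11 at 118 and 317 CPM, a ratio of 0.372. Of their 33 measured Nrf2 targets 0 were called higher and 20 lower (median -0.65), where 4.66% of 9804 genes were higher and 4.81% lower. Their make-up differs between the libraries, as given above, so single clusters are the nearer comparison. In cluster 3, 1 of 33 was higher and 3 lower (median -0.19), and in cluster 9, 2 of 22 were higher and 0 lower (-0.17). In cluster 1, 0 of 28 were higher and 2 lower (-0.14), where 8.74% of all genes were higher and 18.2% lower. In cluster 5, 0 of 27 were higher and 7 lower (-0.27), against 3.01% and 10.1% of all genes. In cluster 7, 0 of 26 were higher and 6 lower (-0.32), against 4.09% and 6.66%, and in cluster 8, 0 of 18 were higher and 2 lower (-0.05), against 8.13% and 5.72%. Of the 7 clusters with at least 50 cells in both libraries, cluster 2 had the highest median, 0.07, with cluster 8 next at -0.05. The all-gene medians of the other single clusters are not given here, so this ranking is not set against each cluster's own shift. The background in cluster 3 was 5.39% higher and 10.7% lower, and in cluster 9 it was 6.73% and 8.07%. Whether the clusters differ in this was not tested, and each contrast rests on the same pair of libraries.

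**Figure D5:**
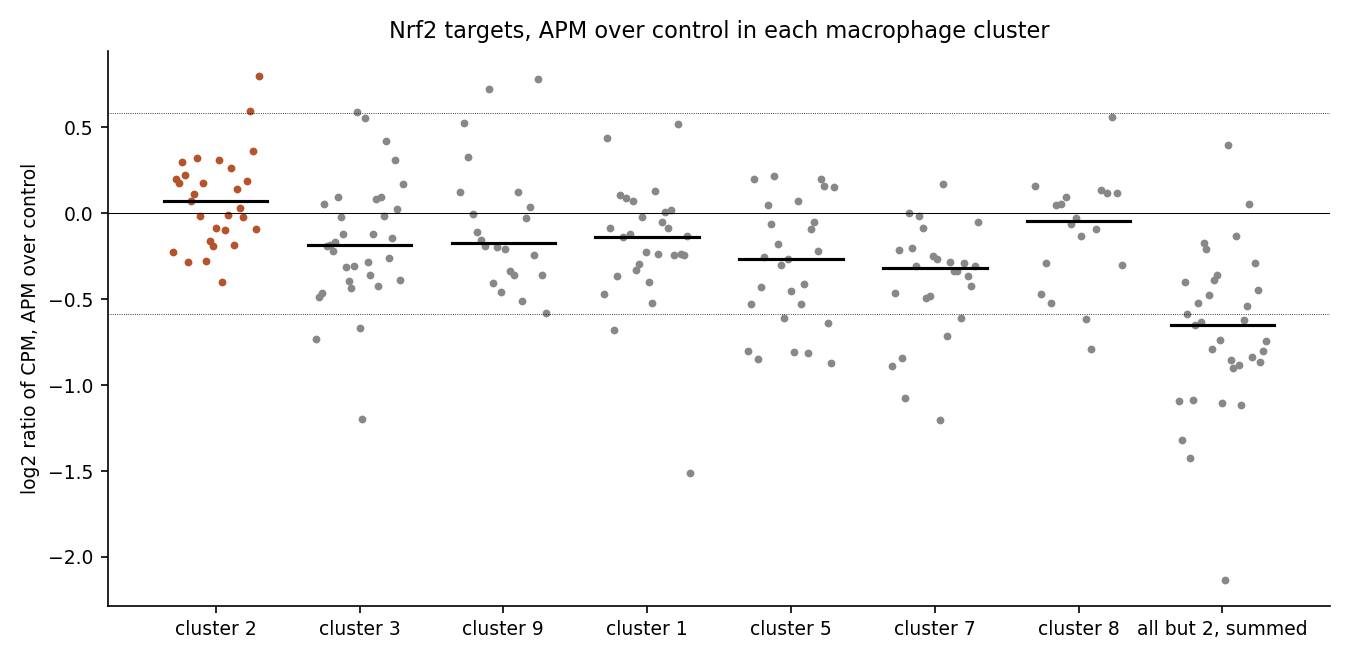
Log2 ratio of CPM, APM over control, of the measured Nrf2 targets within each macrophage cluster that had at least 50 cells in both libraries, and in all alveolar macrophages outside cluster 2 summed; points are genes, black lines are medians and dotted lines mark 1.5-fold. The median is 0.07 in cluster 2, between -0.32 and -0.05 in the other single clusters, and -0.65 in the sum.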

How the data were processed

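Lavage cells of 4 pools of 7 mice were profiled with the 10x Genomics 3' kit, version 2, per the labels' protocols. The authors deposited UMI counts, not normalised, as 1 matrix of 13838 genes by 9925 cells, with a table of each cell's library, coarse type and refined cluster. Cell Ranger 2.2.0, Seurat 2.3.4 and mm10 are named in the submitters' processing notes, without their roles. Strand handling, cell filters and the treatment of doublets are not given in the sources used here. All cells were kept, and no doublet caller was run. The cells had passed 70 and 40 µm strainers, and 60 to 80% were viable, per the labels.

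UMIs were summed per cluster and library and scaled to CPM. Ratios have exact conditional binomial 95% intervals, levels exact Poisson intervals and shares Clopper-Pearson intervals. A gene with 0 UMIs in 1 sum was bounded at 3 counts. Calls needed 50 UMIs over both sums and a 1.5-fold ratio, and with 1 library per group no p-value was computed. Lists were summarised by counts and medians beside all genes. The ratio calculation was tested on simulated data. Promoter windows and their starts came from RefSeq, GRCm38.p6, and gene positions from GENCODE vM21. Python 3.11.15, numpy 2.4.6, scipy 1.17.1, pandas 2.3.3 and matplotlib 3.10.9 were used.

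Named genes were the 4 markers, members of the metallothionein, haem and iron, glutathione, thioredoxin and Nrf2 lists, the 12 highest and 8 lowest ratios of cluster 2 over others (at least 100 CPM in the higher class), the 12 highest and 12 lowest of APM over control (at least 50 CPM in either library), and up to 4 members of each other list. The cluster, its markers and the 31 lists were chosen with earlier results of these data known. Some list members are not reported here. Alternatives changed the scaling, the UMI minimum, the pseudocount, the depth of cells and the weight of the other clusters.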

Additional observations from a re-analysis of the deposited data

Results flagged for a closer look

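Ratios of APM over control lay on opposite sides of 1, past 1.5-fold and with intervals that left out 1, in cluster 2 and in the other alveolar macrophages for 5 named genes. The difference was not tested, because each group is 1 library, and the other alveolar macrophages hold different clusters in APM and control. Ccl3, a monocyte-drawing chemokine, had a ratio of 2.61 (1.80 to 3.85) in cluster 2 and 0.589 (0.504 to 0.688) in the others, with 1.55 in cluster 3. Gdf15, a secreted stress signal, had 1.73 (1.44 to 2.09) in cluster 2 and 0.645 (0.589 to 0.706) in the others, with 1.30 in cluster 3. Maoa, a monoamine oxidase, had 1.78 (1.41 to 2.26) in cluster 2, at 113 CPM in APM and 63.3 CPM in control, and 0.618 (0.539 to 0.708) in the others, with 1.17 in cluster 3. Ptgr1, a reductase of reactive aldehydes, had 1.74 (1.36 to 2.24) in cluster 2 and 0.597 (0.519 to 0.686) in the others, with 1.13 in cluster 3. Epcam, an epithelial adhesion gene, had 0.643 (0.425 to 0.962) in cluster 2, at 23.5 CPM in APM and 36.5 CPM in control, and 1.55 (1.40 to 1.72) in the others, with 1.15 in cluster 3. In cluster 3 the intervals of Maoa, Ptgr1 and Epcam held 1.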

How the results depend on the processing

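Each group is 1 library, so no replicate could be left out, and depth limits low genes most. No paired analysis was possible because each group holds 1 library. None of 521 values under alternatives turned a called direction. Only log2 ratios and medians whose main value reached 1.5-fold could do so, while counts, shares and smaller medians among the 521 could not. The shares of cluster 2 stayed within their intervals, and among the main results 109 stayed within their limits and 32 moved. Cell cycle genes called lower in cluster 2 than in the others, 23 (APM) and 19 (control), were 5 and 2 without the proliferating clusters 7 and 10. For APM over control in cluster 2, genes called higher (229) were 495 at a minimum of 20 UMIs, 43 at 200 and 95 with a pseudocount of 10 CPM. Those called lower (382) were 243 with cells thinned to 1500 UMIs, 825 at 20 UMIs, 58 at 200 and 120 with the pseudocount. The median log2 ratio of the 4 markers was -0.22 in cells of at least 2000 UMIs, against -0.17. For cluster 2 over the others in APM, genes called higher (532) were 838 under scaling by the median of ratios, 261 at 200 UMIs and 256 with the pseudocount, and those called lower (1619) were 759 and 591 under these last settings. The marker median (1.41) was 1.56 under scaling by the median of ratios, 1.51 without the 10 most abundant genes, 1.59 as a mean over cells, 1.66 thinned, 1.30 in deep cells and 0.82 with the other clusters weighted equally. In control, genes called higher (241) were 384 at 20 UMIs, 57 at 200, 17 with the pseudocount and 390 with clusters weighted equally, and those called lower (886) were 304, 140 and 1350 at 200 UMIs, with the pseudocount and with equal weights. The marker median there (0.55) was 0.60, 0.59, 0.70 and 0.65 under scaling by the median of ratios, without the top 10 genes, as a mean over cells and thinned. The cause of each shift was not tested, except that the UMI minimum changes how many genes are counted.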
